A study of Mus musculus with 18 samples.

Results

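The TNF superfamily ligands described here were Tnf, Lta, Ltb, Fasl, Tnfsf10, Tnfsf11 and Tnfsf14, 7 cytokine genes chosen by symbol. A ligand was taken from the probe set that carries its symbol alone, and each of the 7 had exactly 1 such probe set. They are 7 of the 19938 genes with a probe set of their own, and of the 35399 probe sets tested.

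mRNA was measured on 18 Affymetrix arrays of splenic natural killer (NK) cells from ICR mice aged 6 weeks, male or female. The mice were Runx3 -/- (KO) or Runx3 +/+ (WT). The Runx3 protein is one of the Runt-domain transcription factors, and the labels name no Cre or transgene, so the loss is not labelled as limited to NK cells. All mice, WT included, had been injected 2 times at a 2-day interval with IL15/Ra complexes, which drive NK cells to expand and become activated, so no unstimulated cells were analysed here. NKp46+ cells, first enriched by negative selection, were sorted by flow cytometry into 3 subsets. CD27 cells (CD27+CD11b-) are immature. DP cells carry both markers (CD27+CD11b+), and CD11b cells (CD27-CD11b+) have lost CD27; both are mature. KO and WT in the 3 subsets make 6 groups of 3 arrays. The labels do not say whether a replicate number stands for 1 mouse or a pool, so the p-values measure the spread between these samples.

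Ligands of the TNF superfamily are made as membrane proteins that assemble into trimers, and several are also shed or secreted. They act on receptors of the TNF receptor superfamily. Many of these recruit TRAF adaptors and activate NF-kappaB, and those that hold a death domain can start caspase-driven cell death. NK cells use Fasl and Tnfsf10 (TRAIL) as death ligands beside their cytotoxic granules, and Tnf as a secreted cytokine. Lta forms a secreted trimer of its own, and joins Ltb in a membrane trimer that signals through the lymphotoxin beta receptor. Tnfsf14 (LIGHT) binds that receptor too, and Tnfsf11 (RANKL) is the ligand of RANK, known for its part in osteoclast formation and lymph node development.

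Ltb, Tnf and Lta lie next to one another in that order on mouse chromosome 17, between Lst1 and Nfkbil1 among protein-coding genes of the RefSeq gene table. Fasl is on chromosome 1, Tnfsf10 on chromosome 3, Tnfsf11 on chromosome 14 and Tnfsf14 elsewhere on chromosome 17. The 250 bases before the start of each of the 7 genes were read from RefSeq's promoter table for build GRCm38.p6. The windows of the 3 clustered genes and of Tnfsf10 are shown because these are the ligands whose KO and WT arrays separated in some subset. Capitals mark matches to NF-kappaB type letters, here GGG and CC with 5 bases of any kind between them, on either strand. The windows are chr17:35202008-35202257 (minus strand) for Tnf, chr17:35205352-35205601 (minus strand) for Lta, chr17:35194257-35194506 (plus strand) for Ltb and chr3:27316827-27317076 (plus strand) for Tnfsf10, each given 5′ to 3′.
Tnf: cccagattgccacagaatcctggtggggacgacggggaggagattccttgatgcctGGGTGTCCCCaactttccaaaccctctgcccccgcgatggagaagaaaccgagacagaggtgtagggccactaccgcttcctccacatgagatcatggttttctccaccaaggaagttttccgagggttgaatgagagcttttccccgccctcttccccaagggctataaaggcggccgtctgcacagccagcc
Lta: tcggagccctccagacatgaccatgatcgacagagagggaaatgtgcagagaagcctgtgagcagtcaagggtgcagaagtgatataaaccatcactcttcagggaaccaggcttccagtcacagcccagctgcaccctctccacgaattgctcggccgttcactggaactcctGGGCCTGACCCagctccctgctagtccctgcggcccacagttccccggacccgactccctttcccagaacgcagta
Ltb: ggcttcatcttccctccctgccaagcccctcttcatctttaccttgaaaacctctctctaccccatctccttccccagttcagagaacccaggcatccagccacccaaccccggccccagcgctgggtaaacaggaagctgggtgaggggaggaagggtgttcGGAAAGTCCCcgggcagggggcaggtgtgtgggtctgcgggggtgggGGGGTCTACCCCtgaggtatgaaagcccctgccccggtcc
Tnfsf10: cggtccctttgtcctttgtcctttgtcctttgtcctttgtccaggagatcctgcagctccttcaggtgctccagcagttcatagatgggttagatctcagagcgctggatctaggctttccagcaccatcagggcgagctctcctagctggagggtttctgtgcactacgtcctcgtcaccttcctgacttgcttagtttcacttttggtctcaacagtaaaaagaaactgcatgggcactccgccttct

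Both strands of each window were searched for 4 sets of letters. The Runt type letters TGTGGT and TGCGGT were in none of the 7 windows, where 14.0% and 5.1% of the 32851 windows of the table hold them. The NF-kappaB type letters were in 6 of the 7 windows, all but that of Tnfsf10, but such loose letters are also in 45.8% of all windows. The AP-1 type letters TGACTCA were in 1 window, that of Tnfsf14, against 4.5% of all windows. The matches in the Tnf and Lta windows and in the second stretch of the Ltb window were found on both strands at overlapping positions. A match is a description of the letters and not a binding site, and a missing match says only that these letters are not in this window.

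Array medians lay between 6.27 and 6.35 on the log2 scale, and the median SD within groups was 0.14 over probe sets. Runx3 was 1.43-fold lower in KO CD27 cells, 1.55-fold lower in KO DP cells, and in KO CD11b cells 1.40-fold lower (limma, adjusted p = 0.0416, 0.0175 and 0.0416), and whether its probe set lies in the deleted part was not checked. Ncr1, which encodes NKp46, was between 13.45 and 13.81 on every array, and the mean of 10 NK cell markers between 12.48 and 13.02. Xist, which is expressed from the inactive X chromosome, was high (12.48 to 13.00) on the arrays of KO replicate 3 and of WT replicates 2 and 3, and low (5.13 to 5.69) on the other 9 arrays. The arrays of KO replicate 3 stood apart. Cd74, an MHC class II-associated gene, read 7.86, 8.58 and 11.68 there in CD27, DP and CD11b cells. It was at most 6.97 on the other KO arrays and at most 6.32 on WT arrays. The neutrophil list reached 9.13 in CD11b cells of KO replicate 3, and the mean of 15 cell cycle genes was 7.53 to 10.98 over the KO arrays, against 6.90 to 7.25 over the WT arrays. Lysozyme (Lyz2) read 7.96, 5.02 and 12.27 in KO CD11b cells, against 5.02, 5.32 and 5.04 in WT CD11b cells.

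**Figure D1:**
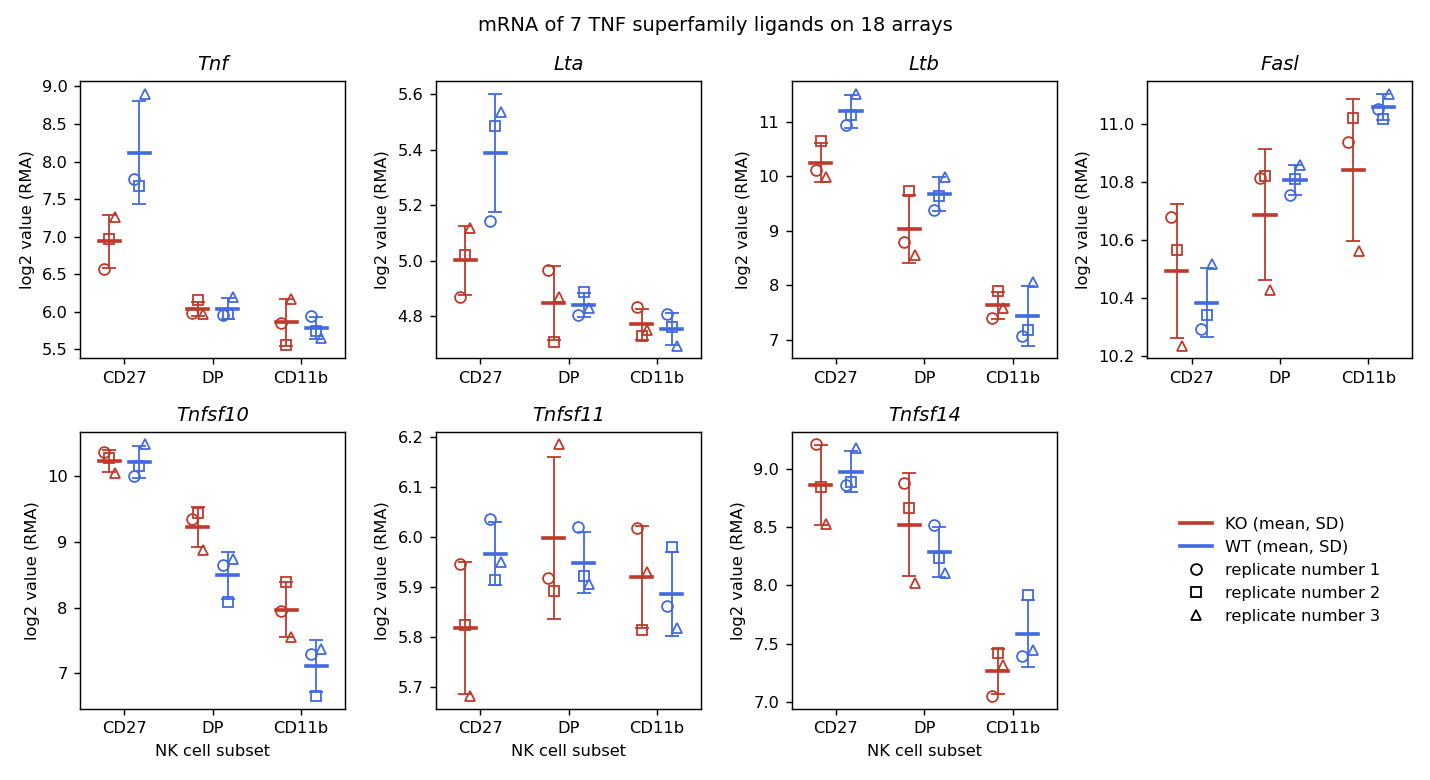
Log2 values of the 7 ligands (vertical axes, each on its own scale) on the 18 arrays by NK cell subset, KO in red to the left of WT in blue; symbols are arrays by replicate number, thick bars group means and thin bars the SD of 3 arrays. Tnf and Lta are highest in WT CD27 cells, Ltb, Tnfsf10 and Tnfsf14 step down to CD11b cells, Fasl steps up, and Tnfsf11 stays between 5.68 and 6.19.

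Across the 3 subsets, the question of the study's design was which genes depend on Runx3. In CD27 cells the 3 clustered genes were lower in KO, with Tnf, Lta and Ltb each reading lower on all 3 KO arrays than on any WT array, but none passed an adjusted p under 0.05. Tnfsf10, the death ligand TRAIL, was higher on all KO than on all WT arrays in DP and in CD11b cells, again without passing in either subset alone. Averaged over the subsets, Tnfsf10 was the 1 ligand of 7 that passed, 1.45-fold higher in KO. Fasl, Tnfsf11 and Tnfsf14 had overlapping KO and WT arrays in every subset.

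Tnf, the secreted and membrane cytokine that gives the family its name, read 6.57, 6.97 and 7.27 on the KO CD27 arrays, against 7.77, 7.68 and 8.90 on the WT CD27 arrays. The KO arrays all lay below the lowest WT array. Tnf was 2.27-fold lower in KO CD27 cells (95% interval 1.53 to 3.37, limma adjusted p = 0.0531). It passed under 3 alternatives, on higher-signal probe sets (limma adjusted p = 0.0338), with the replicate number as a block (0.0286) and with array weights (0.00107). The block matches KO with WT arrays of a number, though same-numbered arrays were not shown to be paired between genotypes. The weight of CD27 KO replicate 1, the KO CD27 array with the lowest Tnf, was 6.24, against 0.49 and 0.37 for replicates 2 and 3. In DP cells Tnf read 5.98, 6.15 and 5.97 in KO, against 5.95, 5.97 and 6.20 in WT. In CD11b cells it read 5.85, 5.55 and 6.17 in KO, against 5.94, 5.75 and 5.65 in WT. These KO and WT arrays overlapped in both mature subsets, and the differences were -0.003 in DP and 0.08 in CD11b cells (adjusted p = 0.998 and 0.958, limma). In order of mean, WT CD27 cells (8.12) stood first and KO CD27 cells (6.94) next, neither overlapping its neighbour, and the 4 mature groups followed between 5.78 and 6.04, each overlapping its neighbour in that order.

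Lta, the lymphotoxin alpha subunit, read 4.87, 5.02 and 5.12 in KO CD27 cells, against 5.14, 5.49 and 5.54 in WT CD27 cells. The highest KO array lay just under the lowest WT array. Lta was 1.31-fold lower in KO CD27 cells (interval 1.13 to 1.51, limma adjusted p = 0.093). Its values in DP cells were 4.97, 4.71 and 4.87 in KO, against 4.81, 4.89 and 4.83 in WT. In CD11b cells they were 4.83, 4.73 and 4.75 in KO, against 4.81, 4.76 and 4.70 in WT. KO and WT arrays overlapped in both of these subsets. The mean of Lta over the 18 arrays was 4.93, under the median of all probe-set means (6.33), so its differences lie in the low range of these arrays.

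Ltb, the membrane partner of Lta, read 10.12, 10.65 and 9.98 in KO CD27 cells, against 10.93, 11.12 and 11.51 in WT CD27 cells. All KO arrays lay below all WT arrays, by 1.92-fold in the means (interval 1.197 to 3.07, limma adjusted p = 0.231). In DP cells Ltb read 8.80, 9.74 and 8.55 in KO, against 9.39, 9.64 and 9.99 in WT. The KO array of replicate 2 lay among the WT arrays, and the difference of -0.65 did not pass (adjusted p = 0.543, limma). In CD11b cells Ltb read 7.41, 7.90 and 7.59 in KO, against 7.08, 7.18 and 8.06 in WT, with the KO arrays between the lowest and highest WT arrays.

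For the CD27 comparison, 0 of 7 ligands passed, where 0.907% of probe sets did, and 3 of 7 had an unadjusted p under 0.05, as had 11.6% of probe sets. Arrays of KO below all arrays of WT, as seen for Tnf, Lta and Ltb, were found for 10.7% of probe sets in this subset. The median difference of the 7 ligands was -0.15, and that of all probe sets -0.01. Part of the T cell markers moved with the 3 clustered genes. Of 12 listed markers 10 were measured, and 2 (Cd3e and Cd3d) passed as lower and 0 as higher in KO CD27 cells. Cd4 went the other way without passing (1.21 log2, limma adjusted p = 0.262), and Cd28 hardly differed (-0.006). The mean of the list was 7.54 to 7.69 on KO CD27 arrays, against 7.94 to 8.37 on WT CD27 arrays. Cd3e, a T cell receptor subunit gene, read 6.39, 6.69 and 7.65 in KO CD27 cells, against 10.49, 11.09 and 8.14 in WT CD27 cells. The WT array with the highest Tnf, Lta and Ltb, replicate 3, was the WT CD27 array with the lowest Cd3e. The part of other cells in these differences was not tested, and in sorted bulk samples fewer cells of a type and less RNA per cell cannot be told apart. The KO minus WT difference of Tnf in CD27 cells was -1.03 among the arrays with high Xist (1 KO, 2 WT) and -1.003 among those with low Xist (2 KO, 1 WT). It was -1.33 at high and -0.55 at low Xist for Ltb, and -0.39 at high and -0.20 at low Xist for Lta. Without the arrays of KO replicate 3, the Tnf difference was -1.35 (adjusted p = 0.0525, limma).

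**Figure D2:**
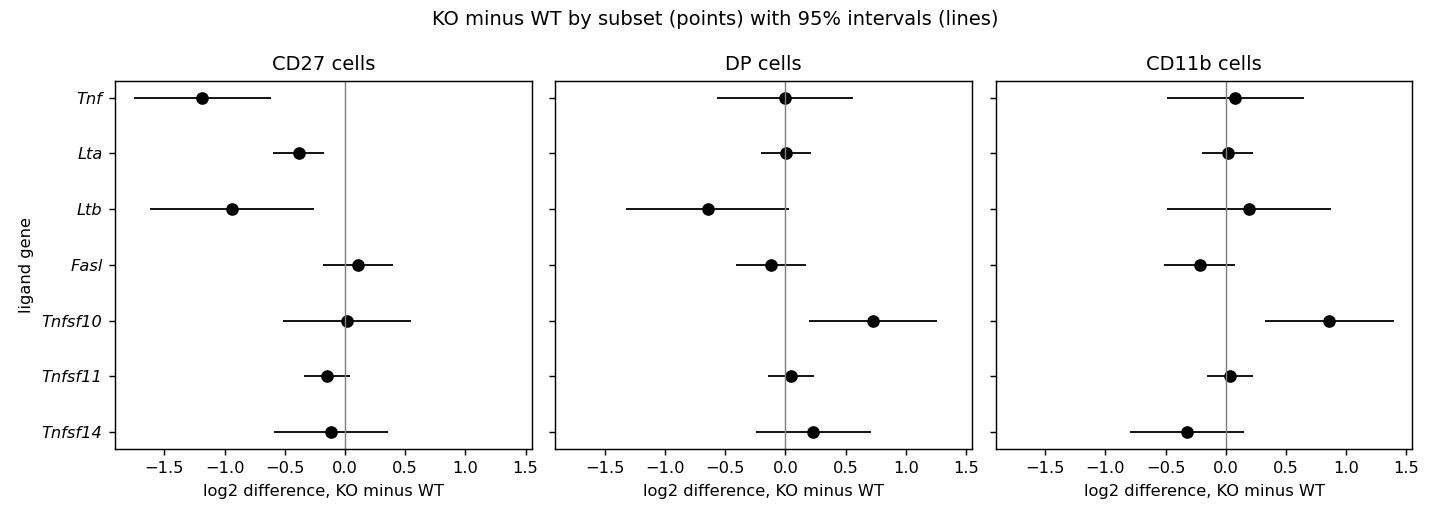
KO minus WT log2 differences (horizontal axis) of the 7 ligands (rows) in each subset, with points for the estimates and lines for 95% intervals from limma. Tnf, Lta and Ltb lie to the left in CD27 cells, at -1.18, -0.39 and -0.94, and Tnfsf10 to the right in DP (0.73) and CD11b cells (0.86), with no adjusted p under 0.05 in any panel.

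Tnfsf10 read 10.37, 10.28 and 10.05 in KO CD27 cells, against 10.00, 10.16 and 10.49 in WT CD27 cells, and these arrays overlapped. In DP cells it read 9.34, 9.45 and 8.88 in KO, against 8.65, 8.09 and 8.74 in WT. In CD11b cells it read 7.96, 8.39 and 7.55 in KO, against 7.30, 6.65 and 7.37 in WT. Every KO array lay above every WT array in these 2 mature subsets, by 1.66-fold in DP cells (interval 1.15 to 2.40, limma adjusted p = 0.329) and 1.82-fold in CD11b cells (interval 1.26 to 2.63, limma adjusted p = 0.124). The percentages of all probe sets with KO arrays above all WT arrays were 6.07 in DP and 7.50 in CD11b cells. Passing were 0 of 7 ligands in DP cells and 0 of 7 in CD11b cells, where 0.395% and 1.29% of probe sets passed, and 1 ligand in each, Tnfsf10, had an unadjusted p under 0.05, as had 9.64% of probe sets in DP and 13.0% in CD11b cells. The median difference of the 7 ligands was 0.01 in DP and 0.03 in CD11b cells, beside -0.02 and -0.01 over all probe sets.

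Averaged over the 3 subsets, Tnfsf10 rose by 0.54 log2 in KO (1.45-fold, interval 1.17 to 1.79, limma adjusted p = 0.0338). It was the 1 ligand of 7 called in a comparison in which 8.08% of probe sets passed and 2.80% passed in the upward direction. Tnf (-0.37, adjusted p = 0.178) and Ltb (-0.46, adjusted p = 0.154) did not pass, nor did the other 4 ligands, between -0.12 and -0.02. The average treats the 3 arrays of a replicate number as separate samples, and with those arrays averaged first, 3 samples against 3, the adjusted p of Tnfsf10 was 0.362. With Xist as a covariate its difference was 0.45 (adjusted p = 0.0504), and it lost its call without any 1 of 9 arrays: CD27 KO 1 or 2, CD27 WT 1 or 2, DP KO 1 or 2, DP WT 2, CD11b KO 1 or CD11b WT 2 (adjusted p up to 0.068). Among the DP arrays the KO minus WT difference of Tnfsf10 was 0.46 at high and 0.75 at low Xist, and among the CD11b arrays 0.54 at high and 0.88 at low Xist. Among the CD27 arrays it was -0.28 at high and 0.32 at low Xist. The averaged differences of other genes given below also count the arrays of a replicate number as separate samples, and their p-values carry the same limit.

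Fasl, which kills cells that bear Fas, lay between 10.24 and 11.11 on every array. It read 10.68, 10.56 and 10.24 in KO CD27 cells, against 10.29, 10.34 and 10.52 in WT CD27 cells. In DP cells it read 10.81, 10.82 and 10.43 in KO, against 10.76, 10.81 and 10.86 in WT. In CD11b cells it read 10.94, 11.02 and 10.56 in KO, against 11.05, 11.02 and 11.11 in WT. The KO array of replicate 3 was the lowest KO array of Fasl in each subset, and the KO minus WT differences of 0.11, -0.12 and -0.22 in CD27, DP and CD11b cells did not pass (adjusted p = 0.873, 0.821 and 0.554, limma). Their 95% intervals, -0.18 to 0.40, -0.41 to 0.17 and -0.51 to 0.08, bound the differences that these arrays allow.

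Tnfsf14, a ligand of Tnfrsf14 and of the lymphotoxin beta receptor, read 9.21, 8.85 and 8.52 in KO CD27 cells, against 8.86, 8.89 and 9.17 in WT CD27 cells. In DP cells it read 8.87, 8.66 and 8.02 in KO, against 8.52, 8.23 and 8.11 in WT. In CD11b cells it read 7.05, 7.42 and 7.32 in KO, against 7.40, 7.91 and 7.45 in WT. The arrays of the genotypes overlapped in each subset, though in CD11b cells 1 KO array alone reached the lowest WT array. Tnfsf11 lay between 5.68 and 6.19 on all 18 arrays, under the median of probe-set means, and no group stood apart from the others.

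The second set of comparisons followed maturation from CD27 through DP to CD11b cells within WT. Between CD27 and CD11b cells, 5 ligands fell, Ltb and Tnfsf10 by the most, and Fasl alone rose. Judged by the threshold alone, Tnf and Lta had fallen by the DP stage, Ltb fell between DP and CD11b cells, and Tnfsf10 fell at both steps. Ltb was also lower in DP than in CD27 cells, just short of passing (limma adjusted p = 0.051). Whether a ligand fell more at one step than at the other was not tested. Tnfsf11 did not pass at any step.

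Ltb was 7.44 ± 0.54 in WT CD11b cells and 11.19 ± 0.30 in WT CD27 cells (SD, n = 3 each), a fall of 13.4-fold (interval 8.39 to 21.5, limma adjusted p = 1.04e-05). Tnfsf10 was 7.10 ± 0.40 in WT CD11b cells and 10.22 ± 0.25 in WT CD27 cells (SD, n = 3 each), a fall of 8.65-fold (interval 5.98 to 12.5, limma adjusted p = 6.31e-06). For both ligands the lowest CD27 array lay well above the highest CD11b array. Tnf was 5.06-fold lower in WT CD11b cells (interval 3.41 to 7.51, limma adjusted p = 0.000124), Tnfsf14 2.61-fold lower (interval 1.88 to 3.63, adjusted p = 0.00189) and Lta 1.55-fold lower (interval 1.34 to 1.79, adjusted p = 0.0015). Fasl averaged 11.06 ± 0.04 in WT CD11b cells and 10.38 ± 0.12 in WT CD27 cells (SD, n = 3 each), a rise of 1.59-fold (interval 1.302 to 1.95, limma adjusted p = 0.00938). So 6 of 7 ligands passed, 5 lower and 1 higher, in a comparison that called 5.00% of probe sets, 2.13% lower and 2.88% higher. The 7 ligands had a median difference of -1.39, beside 0.02 over all probe sets.

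At the first step, DP against CD27 in WT, 3 of 7 ligands fell, where 0.557% of probe sets passed and 0.339% passed in the downward direction. Tnf was 6.04 ± 0.14 in DP and 8.12 ± 0.68 in CD27 cells (SD, n = 3 each), a fall of 4.23-fold (limma adjusted p = 0.00234). Tnfsf10 was 3.30-fold lower in DP cells (limma adjusted p = 0.00536) and Lta 1.46-fold lower (adjusted p = 0.0215), a call that Lta lost without any 1 of 5 arrays, DP WT 1, 2 or 3 or CD27 WT 2 or 3 (adjusted p up to 0.116). Ltb was 2.85-fold lower in DP cells but at an adjusted p of 0.051 (limma), Tnfsf14 1.61-fold lower (0.299) and Fasl 1.34-fold higher (0.295), with no overlap of arrays in any of the 3. Ltb passed with a replicate block (adjusted p = 0.0354, 0.0075 with a random and 0.000683 with a fixed block within genotype) and in 4 other alternatives that keep every array (0.0304 to 0.0434). Fasl passed with the fixed block, chosen after seeing the data (limma adjusted p = 0.00358), and without the arrays of KO replicate 3 (0.0141). It did not pass with the random block within genotype (0.0819) or with the replicate block (0.227). At the second step, CD11b against DP in WT, Ltb fell by 4.71-fold (limma adjusted p = 0.00451) and Tnfsf10 by 2.62-fold (adjusted p = 0.022, and up to 0.104 without CD11b WT 1 or 2 or DP WT 1 or 3). These 2 of 7 ligands stand beside 0.525% of probe sets passing and 0.218% passing in the downward direction. Tnf (-0.26, adjusted p = 0.909) and Lta (-0.09, adjusted p = 0.93) did not pass at this step. Fitted on the compared groups alone, neither of these single steps called any ligand.

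**Figure D3:**
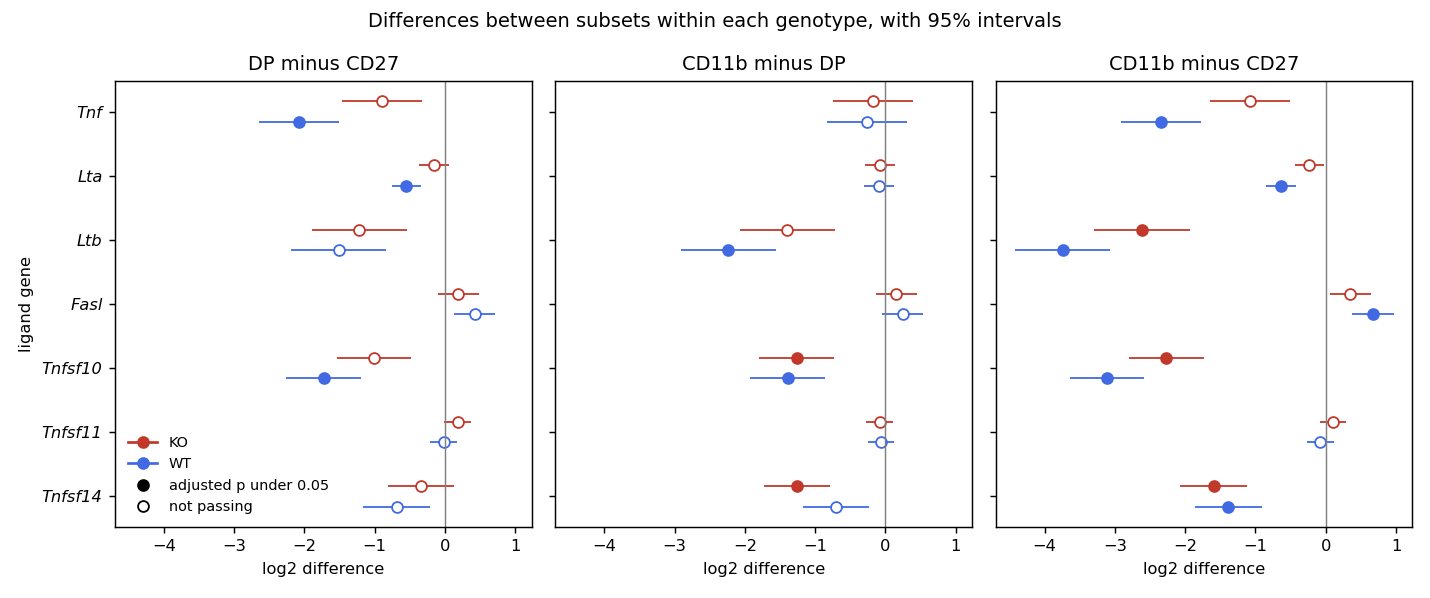
Log2 differences between subsets (horizontal axes) of the 7 ligands (rows), later minus earlier subset, KO in red above WT in blue; points are estimates, filled where the adjusted p is under 0.05, and lines are 95% intervals from limma. In WT, Tnf and Lta lie left of 0 between DP and CD27 cells and Ltb and Tnfsf10 at both steps. From CD27 to CD11b cells, the KO points of Tnf, Lta, Ltb, Fasl and Tnfsf10 lie nearer to 0 than the WT points, and that of Tnfsf14 farther. No ligand passed in the direct test of this difference between genotypes.

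In KO cells every ligand but Tnfsf11 had its subset means in the same order as in WT. Ltb, Tnfsf10 and Tnfsf14 were the 3 ligands that passed between CD27 and CD11b cells of KO. Ltb was 7.63 ± 0.25 in KO CD11b cells and 10.25 ± 0.35 in KO CD27 cells (SD, n = 3 each), a fall of 6.13-fold (interval 3.83 to 9.81, limma adjusted p = 0.000504). Tnfsf10 fell by 4.81-fold (interval 3.33 to 6.96, limma adjusted p = 0.000258) and Tnfsf14 by 3.02-fold (interval 2.17 to 4.197, adjusted p = 0.00139). In this comparison 2.07% of all probe sets passed and 0.828% of all passed in the downward direction, and the median of the 7 ligands was -1.08 beside 0.02 over all probe sets. Tnf was 2.11-fold lower in KO CD11b than in KO CD27 cells at an adjusted p of 0.0537, and Fasl 1.27-fold higher at 0.272 (limma). Replicate numbers pair the KO arrays of the 3 subsets. With the number as a random block within genotype, Tnf fell (adjusted p = 0.0218) and Fasl did not pass (0.0872), so that 4 of 7 ligands passed. With it as a fixed block, chosen after seeing the data, Tnf fell (adjusted p = 0.0296) and Fasl rose (0.00427), so that 5 of 7 passed. Lta was -0.23 (adjusted p = 0.319) and Tnfsf11 0.10 (adjusted p = 0.703).

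Between DP and CD27 cells of KO, 0 of 7 ligands passed, where 0.0198% of probe sets did (limma), and 3 had an unadjusted p under 0.05, as had 5.66% of probe sets. Ltb was 2.33-fold lower in KO DP cells (adjusted p = 0.364), Tnfsf10 2.01-fold lower (0.312) and Tnf 1.87-fold lower (0.555), each with no overlap of arrays. With the random replicate block within genotype neither Ltb (adjusted p = 0.077) nor Tnfsf10 (adjusted p = 0.0736) passed, and with the fixed block Ltb (0.0158) and Tnfsf10 (0.0251) did. Between CD11b and DP cells of KO, Tnfsf10 fell by 2.39-fold (limma adjusted p = 0.0389) and Tnfsf14 by 2.39-fold (adjusted p = 0.0207), where 0.514% of probe sets passed and 0.232% passed in the downward direction. Without the arrays of KO replicate 3 the Tnfsf10 difference was -1.22 and no longer passed (adjusted p = 0.105). The call of Tnfsf14 ended without CD11b KO 1 or 3 or DP KO 1 or 2 (adjusted p up to 0.149). That of Tnfsf10 ended without any 1 of these 4 arrays, and without CD27 KO 1 or 2, CD27 WT 1 or 2, DP WT 1 or CD11b WT 1 (adjusted p up to 0.203). Ltb was 2.63-fold lower in KO CD11b than in KO DP cells (adjusted p = 0.0828). It fell with the block within genotype, random (adjusted p = 0.0132) or fixed (0.00132). Tnfsf10 and Tnfsf14 also passed with the random block (limma adjusted p = 0.00681 and 0.00723) and with the fixed block (0.00263 and 0.0162). With the replicate block across genotypes, Tnfsf14 passed (0.0194), and Tnfsf10 (0.058) and Ltb (0.0565) did not.

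Some markers of other lymphocytes fell with maturation in both genotypes. Of the 10 measured T cell markers 4 fell between CD27 and CD11b cells in KO, with log2 differences of -2.41 for Cd3d, -1.77 for Cd3g and -1.57 for Cd28. In WT 5 of 10 fell, with log2 differences of -4.43 for Cd3e, -3.99 for Cd3d and -2.22 for Cd3g. Of all probe sets, 0.828% fell in KO and 2.13% in WT. The other 6 T cell markers in KO and 5 in WT did not pass, among them Cd4 (-0.43 in KO, -0.05 in WT), Cd8a (0.41 in KO, -0.47 in WT) and Cd8b1 (0.37 in KO, -0.17 in WT). The mean of the T cell list was 6.67 to 7.11 in KO CD11b cells and 7.54 to 7.69 in KO CD27 cells, and 6.63 to 6.75 in WT CD11b cells and 7.94 to 8.37 in WT CD27 cells. Il7r, the interleukin-7 receptor gene and a marker of other innate lymphoid cells, fell by 4.19 in KO and 5.58 in WT on the log2 scale, 1 of 8 measured markers of its list in KO and, with Kit, 2 of 8 in WT. Cd27 itself followed the sort, with 9.48 ± 0.73 in KO CD11b and 11.63 ± 0.27 in KO CD27 cells, and 9.87 ± 0.06 in WT CD11b and 11.80 ± 0.10 in WT CD27 cells (SD, n = 3 each). The part of these cell markers in the falls of Ltb, Tnfsf10, Tnf and Tnfsf14 was not tested.

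**Figure D4:**
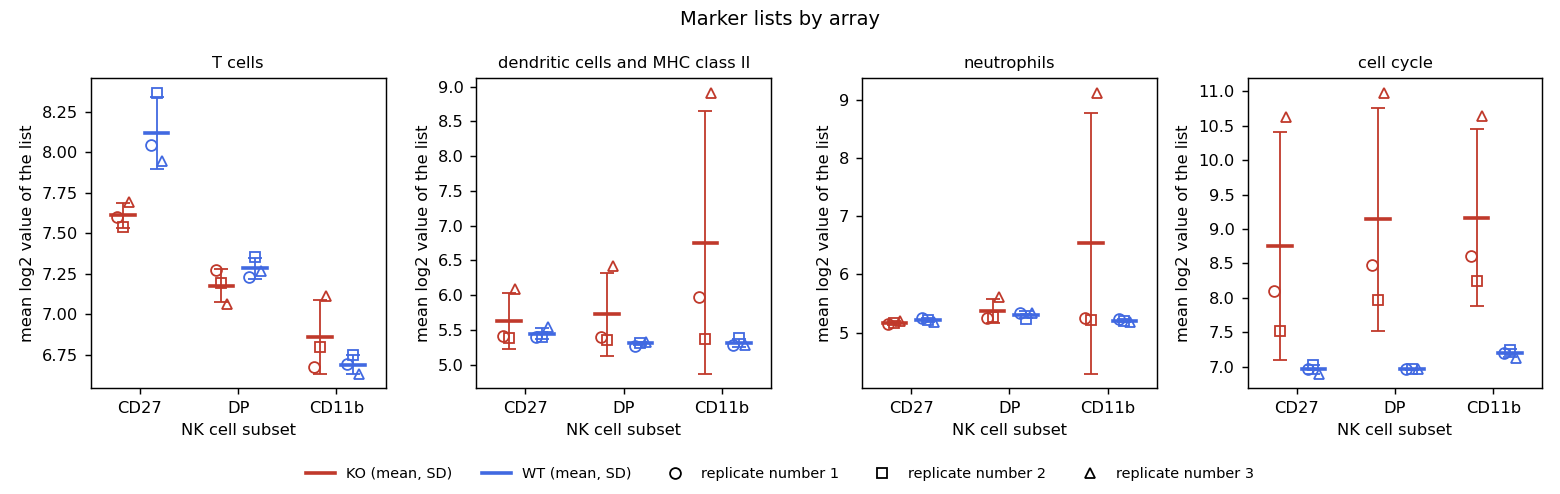
Mean log2 value (vertical axes, each on its own scale) of 4 marker lists on the 18 arrays by NK cell subset, KO in red to the left of WT in blue; symbols are arrays by replicate number, thick bars group means and thin bars the SD of 3 arrays. T cell markers are highest in WT CD27 cells (7.94 to 8.37), where Tnf, Lta and Ltb are highest too, and the triangles of KO replicate 3 lie far above the other arrays for MHC class II and neutrophil markers in CD11b cells and for cell cycle genes in all subsets.

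Whether the fall from CD27 to CD11b cells differed between the genotypes was tested directly. The CD11b minus CD27 difference of Tnf was -1.08 in KO and -2.34 in WT, so that it was less negative in KO by 1.26 (95% interval 0.46 to 2.07), at an adjusted p of 0.551 (limma). For Ltb the differences were -2.62 in KO and -3.75 in WT (1.13, interval 0.17 to 2.09, adjusted p = 0.765), and for Tnfsf10 -2.27 in KO and -3.11 in WT (0.85, interval 0.09 to 1.60, adjusted p = 0.793). For Lta the value was 0.40 (interval 0.10 to 0.70, adjusted p = 0.679) and for Fasl -0.33 (interval -0.74 to 0.09, adjusted p = 0.934). The intervals of Tnf, Ltb, Tnfsf10 and Lta lay above 0, with an unadjusted p under 0.05 in these 4 of 7, against 6.02% of probe sets. None of the 7 passed in this comparison, which called 0.0367% of probe sets. The moderated F test of genotype by subset over all 3 subsets called 0 of 7 ligands and 0.0113% of probe sets. Its smallest unadjusted p was that of Tnf (0.0073, adjusted p = 0.901), followed by Lta (0.0177, adjusted p = 1), and the other 5 had an unadjusted p above 0.05, which 4.18% of probe sets fell under. Dependence of the ligands' genotype differences on subset was thus not shown.

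Beyond the 7 ligands, 9 of 11 other ligands of the superfamily had a probe set of their own. Tnfsf8, the ligand of CD30, fell between CD27 and CD11b cells by 1.88 log2 in KO and 1.99 log2 in WT (limma adjusted p = 0.000844 and 0.000231). It was the 1 of 9 to pass in each, where 2.07% of all probe sets passed in KO and 5.00% in WT. It averaged 5.77 ± 0.23 in KO CD11b and 7.65 ± 0.45 in KO CD27 cells, and 5.65 ± 0.10 in WT CD11b and 7.64 ± 0.54 in WT CD27 cells (SD, n = 3 each). It had fallen in WT by the DP stage (-1.89, adjusted p = 0.00245). Between KO and WT, 0 of 9 passed in any subset, where 0.907% of probe sets passed in CD27, 0.395% in DP and 1.29% in CD11b cells. Averaged over subsets 1 of 9, Tnfsf9 (the ligand of 4-1BB), fell in KO (-0.33, limma adjusted p = 0.029), where 5.28% of probe sets fell. The median of the list between CD27 and CD11b cells was 0.04 in KO and 0.04 in WT.

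**Figure D5:**
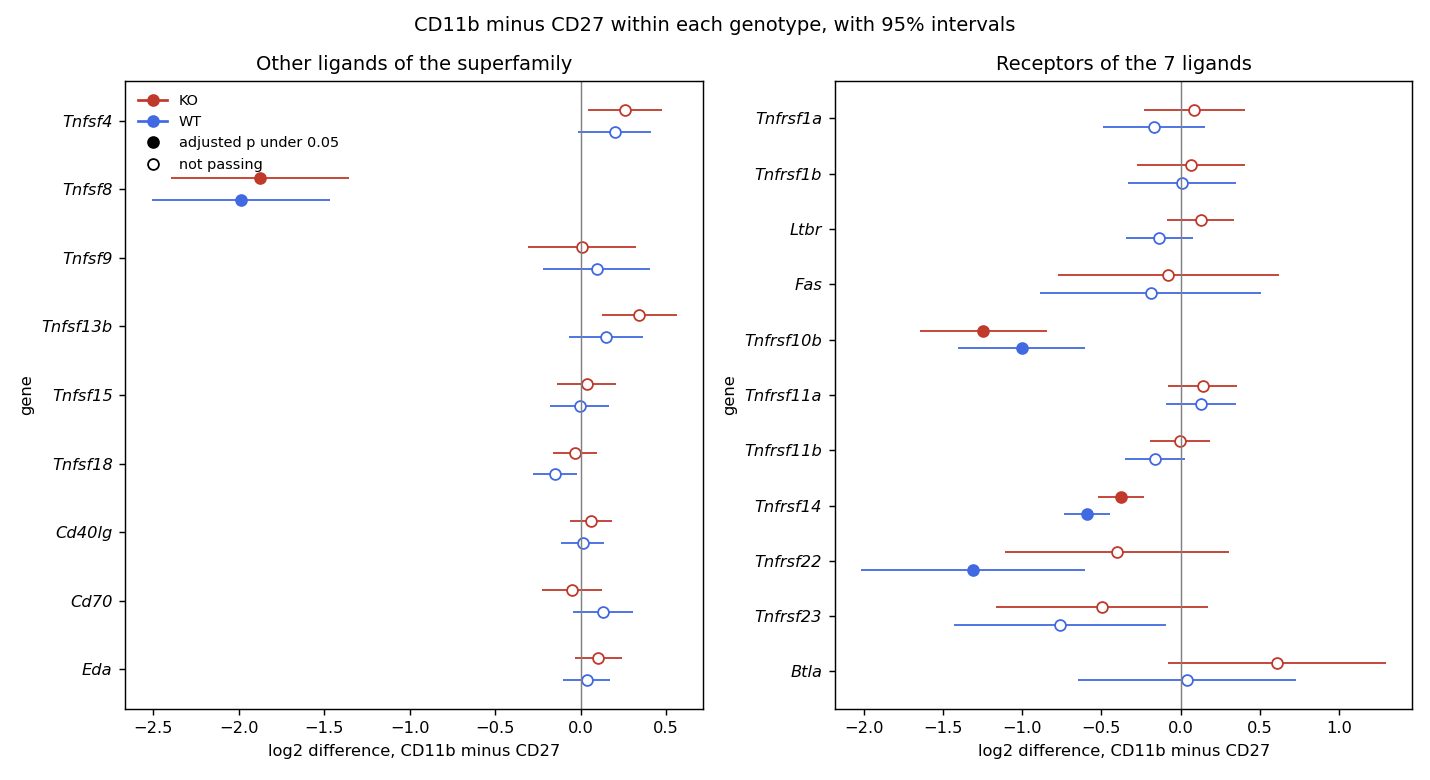
CD11b minus CD27 log2 differences (horizontal axes) of 9 other ligands and of 11 receptors (rows), KO in red above WT in blue; points are estimates, filled where the adjusted p is under 0.05, and lines are 95% intervals from limma. Tnfsf8 is the 1 other ligand with filled points, at -1.88 in KO and -1.99 in WT, and Tnfrsf10b and Tnfrsf14 are the receptors filled in both genotypes.

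All 11 receptors on the list were measured. Tnfrsf10b, the mouse receptor through which Tnfsf10 kills, fell between CD27 and CD11b cells in KO (-1.25, limma adjusted p = 0.0024) and in WT (-1.002, adjusted p = 0.0054). Tnfrsf14, the receptor of Tnfsf14, fell by 0.38 log2 in KO (adjusted p = 0.009) and by 0.59 log2 in WT (adjusted p = 0.000139). Tnfrsf22, a mouse decoy receptor for Tnfsf10, fell in WT (-1.31, adjusted p = 0.0326), which makes 2 of 11 receptors in KO and 3 of 11 in WT, with none rising, where 0.828% of probe sets fell in KO and 2.13% in WT. Averaged over subsets, Tnfrsf22 (1.004, adjusted p = 0.00516) and Fas, the receptor of Fasl (0.81, adjusted p = 0.0165), rose in KO, 2 of 11 beside 2.80% of probe sets, and in no single subset did a receptor pass between KO and WT. The medians were 0.08 for the averaged comparison, -0.004 for CD11b against CD27 in KO and -0.17 in WT.

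Of 23 genes of ligand shedding and receptor signalling, 20 were measured. In CD27 cells, Otulin, a deubiquitinase of linear ubiquitin chains (-0.51, limma adjusted p = 0.0187), and Traf2, a receptor adaptor (-0.32, adjusted p = 0.039), fell in KO. The other 18 did not pass. Otulin also fell in KO CD11b cells (-0.43, limma adjusted p = 0.0399), the 1 of 20 to pass there, and 0 of 20 passed in DP cells. Of all probe sets, 0.907% passed in CD27, 1.29% in CD11b and 0.395% in DP cells. Averaged over subsets, where 8.08% of probe sets passed, 1 rose and 4 fell, among them Ripk3, a kinase of necroptosis (0.83, adjusted p = 0.0389), Traf1 (-0.73, adjusted p = 0.00151) and Otulin (-0.44, adjusted p = 0.000228). Adam17, the protease that sheds Tnf, rose between CD27 and CD11b cells of WT (0.44, limma adjusted p = 0.0123), as did the adaptor Tradd (0.64, adjusted p = 0.0407), while Traf1 fell (-0.80, adjusted p = 0.0294). In KO 0 of 20 passed. These stand beside 5.00% of probe sets passing in WT and 2.07% in KO.

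Of 20 NF-kappaB subunits, inhibitors and target genes, 18 were measured, and averaged over subsets 7 fell and 0 rose in KO, where 5.28% of probe sets fell and 2.80% rose. The falls included Ier3 (-0.53, limma adjusted p = 0.0213), Rel, the c-Rel subunit (-0.47, adjusted p = 8.41e-05), and the inhibitor Nfkbie (-0.42, adjusted p = 0.0284). As with Tnfsf10, these averaged p-values count same-numbered arrays as separate samples. The median of the list was -0.12, beside -0.02 over all probe sets. In CD27 cells Rel alone passed (-0.54, limma adjusted p = 0.0105), in CD11b cells Rel (-0.43, adjusted p = 0.0302) and Tnip1 (-0.39, adjusted p = 0.0416), and in DP cells none of the 18. Of all probe sets, 0.907% passed in CD27, 1.29% in CD11b and 0.395% in DP cells. Between CD27 and CD11b cells, Tnip1 rose in KO (0.38, adjusted p = 0.0321) and in WT (0.60, adjusted p = 0.000781), and Csf2 fell in WT (-0.48, adjusted p = 0.000716). So 1 of 18 rose in KO, and in WT 1 rose and 1 fell. For this comparison 2.07% of probe sets passed in KO and 5.00% in WT.

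Of 16 genes that control the mRNA or transcription of cytokines, 14 were measured. Prdm1, which encodes the repressor Blimp-1, was the 1 to pass between KO and WT in CD27 cells, where it rose in KO (1.10, limma adjusted p = 0.00527), while 0 of 14 passed in DP or in CD11b cells. Of all probe sets, 0.907% passed in CD27, 0.395% in DP and 1.29% in CD11b cells. Averaged over subsets 2 rose and 3 fell, where 2.80% of probe sets rose and 5.28% fell. Ahr (0.57, limma adjusted p = 0.00272) and Prdm1 (0.55, adjusted p = 0.00305) were higher in KO and Zfp36l1, an mRNA-decay factor (-0.32, adjusted p = 0.0175), lower. Between CD27 and CD11b cells of WT, Prdm1 rose (1.38, adjusted p = 0.000193) while Ahr (-1.36, adjusted p = 0.000245) and Nfatc2 (-1.35, adjusted p = 0.00492) fell. In KO, Ahr (-0.97, adjusted p = 0.00675) and Zfp36l1 (-0.59, adjusted p = 0.0293) fell, and Prdm1 did not pass. Of the 14, 2 rose and 3 fell between these subsets in WT, and 0 rose and 2 fell in KO. Beside them, 5.00% of probe sets passed in WT and 2.07% in KO.

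The ligands also differed in which genes followed them most closely over the 18 arrays, among 9069 genes (9070 for Lta and Tnfsf11) at or above the median of probe-set means. These are descriptions, since the arrays share their groups and the cells of a replicate number. Lta was followed most closely by Tnf (Pearson r = 0.92), then Ccr7 (0.90) and Kit (0.90), and Tnf, apart from Lta, which lies below that median, by Ifnar2, Sntb1 and Irf2bp2 (each 0.90). Ltb was followed by Fchsd2 (0.96), Usp53 (0.96) and Acpp (0.96), and Tnfsf10 by Ifi208 (0.96), Cd160 (0.95) and Cxcr6 (0.95). For Tnfsf14 the genes were Phf11c (0.94), Ccdc125 (0.94) and Cd28 (0.94), and for Fasl, Rabep2 (0.95), Lat2 (0.94) and Ctsd (0.94). Tnfsf11, at the low end of the arrays, had no gene above 0.66. Once the group means were taken out, Tnf and Lta had an r of 0.48, Ltb and Tnfsf10 0.54, and Fasl and Tnfsf10 0.72. Over all 18 arrays Fasl and Tnfsf10 ran in opposite directions (-0.72). Within groups Ltb had an r of only 0.19 with Tnf and of -0.20 with Lta. Other pairs reached 0.55 (Fasl and Tnfsf14) and -0.53 (Ltb and Tnfsf11). The array of KO replicate 3 was the lowest KO array of both Fasl and Tnfsf10 in each subset, and its part in the 0.72 was not tested.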

How the data were processed

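Per the submitters' processing notes, the authors used RMA and Partek, with no versions given. That the deposited values are log2 was judged from their range (3.91 to 14.96). RMA brings arrays to a common distribution, so values are relative within an array, and 3 arrays a group limit the precision. No filter was applied. Symbols came from the platform annotation, in which 21789 of 35399 probe sets have 1 symbol.

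With limma 3.58.1 in R 4.3.3, 1 mean per group was fitted over all arrays (12 residual and 2.18 prior degrees of freedom). The 12 comparisons were moderated by eBayes, two-sided, with Benjamini-Hochberg adjustment over all probe sets. The threshold on the adjusted p was 0.05. Permuting 3 arrays against 3 gives no p under 0.1 and was not done. Members, lists and tests were chosen with earlier results of these data known. Named are the 7 ligands, up to 3 passing members with the largest changes of each of 13 lists (154 of 171 entries measured) in a comparison, the 3 genes most like each ligand, and genes that check labels, Xist and the arrays of KO replicate 3.

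Replicate numbers come from the titles. Deviations from group means of same-numbered arrays correlated at 0.21 to 0.64 in all 9 pairs within KO, so the numbers pair those arrays. Within WT 8 of 9 pairs correlated at 0.14 to 0.46 and 1 at -0.01, and between genotypes the range was -0.07 to 0.34, so that neither met the rule that every pair exceed 0.1, although high Xist went with the same numbers in every subset of a genotype. Alternatives were cyclic loess, higher-signal probe sets (mean at or above the median), a trended robust prior (statmod 1.5.0), the compared groups alone, array weights, 3 kinds of replicate block, no KO replicate 3 arrays, Xist as a covariate, a minimum fold of 1.5 and each array left out. The fixed block within genotype was chosen after seeing the data. The procedure was tested on simulated data.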

Additional observations from a re-analysis of the deposited data

How the results depend on the processing

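Over 84 single-ligand results under up to 29 alternatives each, 2277 of 2370 values kept their side of the threshold, 56 lost a call, 37 gained one and none reversed; 40 uncalled values changed sign. Of the 17 calls, 5 held under every alternative run: Ltb and Tnfsf10 for CD11b against CD27 in KO and in WT, and Tnf for that comparison in WT. Numbers of ligands passing moved by over 1.5 times as follows. For KO against WT in CD27 cells (0), the higher-signal probe sets gave 1 (Tnf), array weights 4 (Tnf, Lta, Ltb and Fasl, with 1 KO array weighted 6.24), the replicate block 1 (Tnf, adjusted p = 0.0286) and single omissions 0 to 1, the 1 being Lta without CD27 WT replicate 1 (adjusted p = 0.0138). In CD11b cells (0), cyclic loess gave 1 (Tnfsf10, adjusted p = 0.0486). For the average over subsets (1), the random replicate block within genotype, Xist as a covariate and 3 averaged samples against 3 each gave 0, and omissions 0 to 1. Fits on the compared groups alone gave 0 for DP against CD27 in WT (3), CD11b against DP in WT (2) and CD11b against DP in KO (2). The fixed replicate block within genotype gave 5 for DP against CD27 in WT, 2 for DP against CD27 in KO (0) and 5 for CD11b against CD27 in KO (3), and array weights gave 1 for DP against CD27 in KO. For CD11b against DP in KO the replicate block gave 1, omission of the KO replicate 3 arrays 1 and single omissions 0 to 2; for CD11b against DP in WT single omissions gave 1 to 2, for DP against CD27 in WT 2 to 4, and for CD11b against CD27 in KO 3 to 4. In CD11b against CD27 in KO, Tnf joined the calls under the higher-signal probe sets, the trended robust prior, array weights, Xist as a covariate and every replicate block (adjusted p = 0.0218 to 0.0493). Tested against a minimum fold of 1.5, 3 of 6 calls held for CD11b against CD27 in WT (Tnf, Ltb and Tnfsf10), 2 of 3 in KO (Ltb and Tnfsf10), and 0 of 3, 0 of 2, 0 of 2 and 0 of 1 for DP against CD27 in WT, CD11b against DP in WT, CD11b against DP in KO and the average over subsets. The WT numbers did not meet the rule for pairing. Except for the shift to fewer arrays or fewer probe sets that some alternatives make by construction, the cause was not tested. A group cut to 2 arrays was taken to have the spread of the other groups. Each ligand has 1 probe set, so no other probe set could be tried; Lta and Tnfsf11 fall out of the higher-signal set. Low signal limits what can be said of Lta and Tnfsf11.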
